A study of Mus musculus with 6 samples.

Results

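The p53 target genes described here are 10 genes chosen by name: Pmaip1, Bbc3, Fas, Cdkn1a, Mdm2, Trp53inp1, Ccng1, Sesn1, Zmat3 and Phlda3. All 10 were found among the 35275 Ensembl identifiers of an expression table of mouse regulatory T cells (Treg cells, the CD4+ T cells that depend on the transcription factor Foxp3 and restrain immune responses). The deletion group came from Rcor1fl/flFoxp3YFPcre mice, which lack Rcor1 in Foxp3+ cells, and the control group from Foxp3YFPcre mice, which the labels call wild type although they carry the Cre recombinase too. Rcor1 encodes CoREST1, the scaffold of a complex that removes methyl and acetyl groups from histones. Each group had 3 biological replicates from male mice aged 6 to 8 weeks, and the Foxp3 gene drove both Cre and a yellow fluorescent protein (YFP). CD4+ cells were enriched on a column, YFP+ cells were sorted, and their messenger RNA was sequenced in paired reads. Neither the source organ nor any pooling of mice is stated in the labels.

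The protein p53, encoded by Trp53, is a transcription factor that accumulates after DNA damage and other stress and switches on genes of cell cycle arrest, DNA repair and cell death. Its level is held down by Mdm2, a ubiquitin ligase that is itself a p53 target, so that the pathway carries its own brake. In T cells the target gene Fas encodes the death receptor that removes activated cells, and most of these targets also respond to factors other than p53.

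Promoter windows came from RefSeq (GRCm38.p6), each from 250 bases before to 50 bases after an annotated gene start. They were found for 7 of the 10 genes, in 11 windows, but not for Pmaip1, Trp53inp1 and Zmat3. The 11 windows were searched for the p53 decamer consensus, the unit that p53 binds as a pair. It reads as 3 purines, C, 2 bases that are A or T, G and 3 pyrimidines. This consensus equals its own reverse complement, so a search covers both strands. The stretches below show what the search found near these gene starts. Capitals mark each match that lies in the stretch, also with other bases than A or T at the inner positions, which is the only form found in the Fas stretch.
Cdkn1a: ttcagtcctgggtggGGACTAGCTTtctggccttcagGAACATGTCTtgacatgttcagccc
Ccng1: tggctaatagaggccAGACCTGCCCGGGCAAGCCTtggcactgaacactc
Mdm2: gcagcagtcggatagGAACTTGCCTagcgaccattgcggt
Sesn1: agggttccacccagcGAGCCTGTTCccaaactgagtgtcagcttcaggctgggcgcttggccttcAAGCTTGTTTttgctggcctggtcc
Fas: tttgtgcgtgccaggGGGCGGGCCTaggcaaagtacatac
The Cdkn1a stretch lies at chr17:29090891-29090952 on the plus strand, that of Ccng1 at chr11:40755447-40755496 on the minus strand and that of Mdm2 at chr10:117710920-117710959 on the minus strand. The Sesn1 stretch lies at chr10:41887201-41887290 and that of Fas at chr19:34290597-34290636, both on the plus strand.

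The consensus with A or T inside occurred in windows of 4 genes, Cdkn1a, Ccng1, Mdm2 and Sesn1, which were 4 of the 11 windows, and 8.36% of all 32851 promoter windows held it. A pair of such decamers with a spacer of at most 13 bases occurred in 1 window, against 0.0731% of all windows. It is the Cdkn1a window that holds the stretch shown above. Another Cdkn1a window, further downstream, held only GGGCGCGCCC, with other bases inside. The search allowed no mismatch, so decamers close to the consensus are not marked. The core CATG was found in 1 of these genes, again Cdkn1a (GAACATGTCT), against 1.93% of all windows. With any bases inside, 7 of the 11 windows matched, against 32.5% of all windows, and a pair within the spacer limit was found in Cdkn1a and Ccng1, against 1.04%. Fas (GGGCGGGCCT) and Bbc3 matched only in this wider form, and the Phlda3 window held no match. A match describes the letters in this window, and whether p53 binds there was not tested.

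Values are FPKM (fragments scaled to gene length and library total), so levels can be compared between genes. The 6 libraries held between 18538581 and 22349455 fragments each, by a reconstruction from the FPKM. A gene entered the test when 3 or more of the 6 libraries reached 1 FPKM, a rule met by 11575 genes and all 10 targets. The test was limma on log2(FPKM + 1), two-sided, with Benjamini-Hochberg adjustment over the 11575 genes and a threshold of 0.05. Fold changes are deletion over control on that scale, where the added 1 FPKM makes changes of weakly expressed genes look smaller.

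Rcor1 itself held 12.5, 13.0 and 14.2 FPKM in deletion libraries 1, 2 and 3, against 16.1, 16.1 and 15.2 FPKM in control libraries 1, 2 and 3. Every deletion library was lower, but the difference missed the threshold (log2 fold change -0.24, adjusted p = 0.0562 by limma; two-sided exact permutation p = 0.1, the smallest that 3 against 3 libraries allow). Fragments from exons outside a floxed part also count toward this value, which makes it a weak check of the labels. Treg and T helper markers were present throughout, with a summed level of 7 genes, Foxp3, Cd4 and Cd3e among them, of 1070 to 1090 FPKM in deletion libraries and 996 to 1170 FPKM in control libraries. Markers of other cells also differed: 8 B cell genes summed to 52.0 to 63.1 FPKM in deletion libraries and 30.9 to 47.9 FPKM in control libraries, and 8 lens and fat genes to 0.796 to 1.76 FPKM in deletion libraries and 135 to 210 FPKM in control libraries. Of these, Crybb2 and Cfd were at 0 in all deletion libraries. Sums overlapped between the groups for plasma cell genes (5 genes, 434 to 533 FPKM in deletion and 158 to 443 FPKM in control), myeloid genes (7 genes, 9.39 to 225 FPKM and 13.8 to 125 FPKM), CD8 and NK cell genes (5 genes, 22.1 to 24.0 FPKM and 22.8 to 29.4 FPKM) and erythroid genes (5 genes, 8.71 to 76.4 FPKM and 25.5 to 388 FPKM). None of the marker genes in these lists was at 0 in all control libraries. The part of these cells in the results below was not tested. In RNA of a whole sorted population, fewer cells of a type and less RNA per cell cannot be told apart.

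Of the 10 p53 target genes, 2 rose in the deletion libraries (Pmaip1 and Fas), 1 fell (Phlda3) and 7 did not pass the threshold. Among all tested genes 12.0% passed, 8.95% upward and 3.08% downward. Of the 10 targets, 2 were called with median-ratio scaling (Pmaip1 and Phlda3), against 10.3% of all tested genes, 4.83% upward and 5.46% downward. Voom on recovered fragments called Pmaip1, against 12.4% of all tested genes (6.09% upward, 6.31% downward), and quantile normalization called Phlda3, against 7.50% (4.09% upward, 3.41% downward). The median log2 fold change was 0.08 for the targets and 0.08 for all tested genes. The groups did not overlap for 4 targets, 3 of them higher in the deletion libraries (Pmaip1, Fas and Mdm2) and 1 lower (Phlda3), while this held for 29.3% and 9.79% of all tested genes, 39.1% in all.

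**Figure D1:**
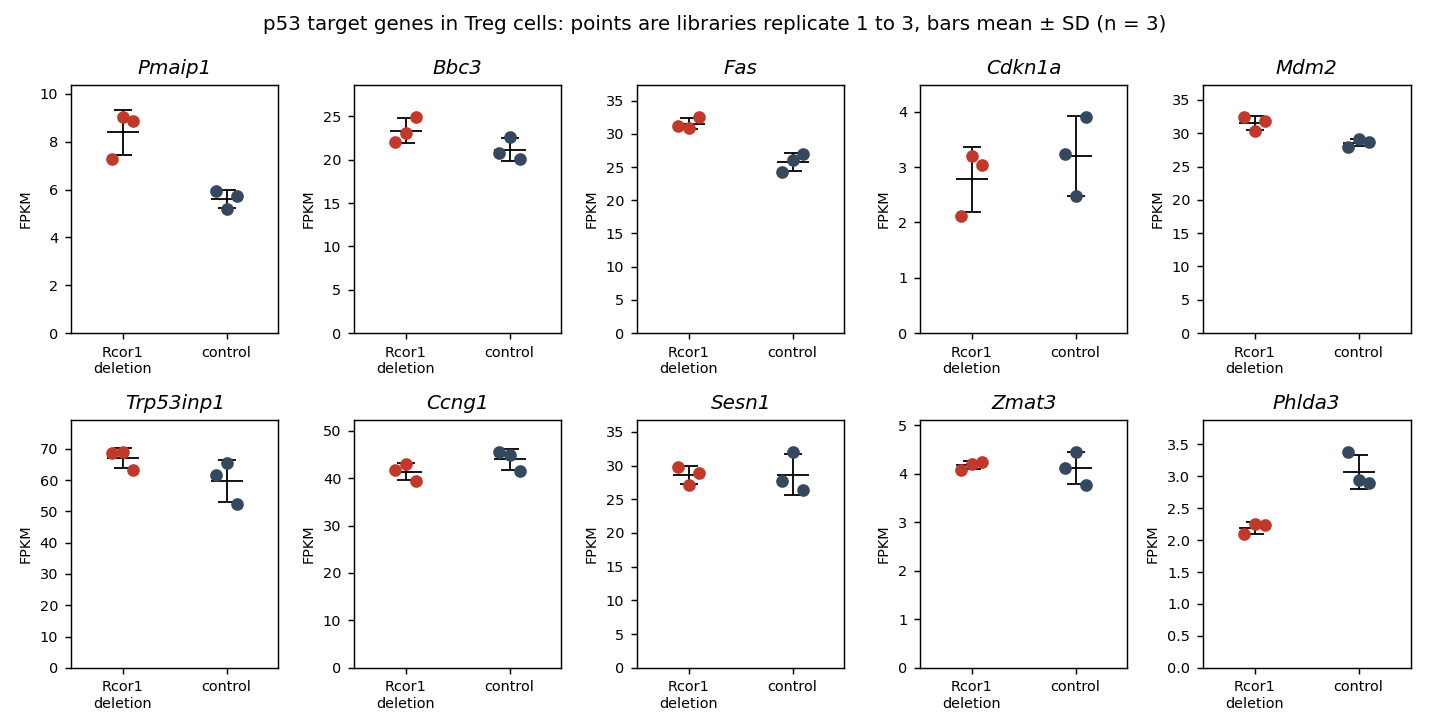
FPKM (linear axes from 0) of the 10 p53 target genes in the Rcor1 deletion and control libraries; points are the 3 libraries of a group, in the order of replicates 1 to 3, and bars the mean ± SD. The deletion points lie wholly above the control points for Pmaip1, Fas and Mdm2 and wholly below for Phlda3, and the other panels overlap.

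The death-promoting targets come first. Pmaip1 encodes Noxa, a small protein of the BH3-only class that neutralises the survival factor Mcl1. It held 7.29, 9.02 and 8.85 FPKM in deletion libraries 1, 2 and 3, against 5.92, 5.17 and 5.71 FPKM in control libraries 1, 2 and 3. All deletion libraries lay above all control libraries. The mean was 8.39 ± 0.96 FPKM in deletion and 5.6 ± 0.39 FPKM in control libraries (SD, n = 3 each), 49.8% higher, with a log2 fold change of 0.50 (SE 0.096, 95% confidence interval 0.28 to 0.73, limma adjusted p = 0.0218). These levels rest on 431, 485 and 474 fragments in deletion and 323, 272 and 280 fragments in control libraries. The call was lost without deletion library 2 or 3 (adjusted p = 0.0777 and 0.0876) and without control library 1 or 3 (0.0604 and 0.0574), with a log2 fold change of 0.46 to 0.59 whichever library was left out. With quantile normalization it was lost as well (log2 fold change 0.39, limma adjusted p = 0.0583).

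Fas, the death receptor of the tumour necrosis factor receptor family, held 31.2, 30.9 and 32.5 FPKM in deletion libraries 1, 2 and 3, against 24.2, 26.1 and 26.9 FPKM in control libraries 1, 2 and 3. The groups again did not overlap. Fas averaged 31.5 ± 0.89 FPKM in deletion and 25.7 ± 1.4 FPKM in control libraries (SD, n = 3 each), 22.6% higher, with a log2 fold change of 0.28 (SE 0.059, 95% confidence interval 0.15 to 0.42, limma adjusted p = 0.0279). The call held without control library 2 or 3 and was lost without any of the other libraries (log2 fold change 0.24 to 0.32, adjusted p up to 0.107). Scaling by median ratios (0.20, limma adjusted p = 0.0762), quantile normalization (0.22, limma adjusted p = 0.0622) and voom on recovered fragments (0.21, adjusted p = 0.0853) each ended it too.

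Bbc3 encodes PUMA, the other BH3-only protein of the list, which binds all survival members of the Bcl2 family. It held 22.1, 23.1 and 24.9 FPKM in deletion libraries 1, 2 and 3 and 20.8, 22.6 and 20.1 FPKM in control libraries 1, 2 and 3. Control library 2 lay above deletion library 1, so the groups overlapped, and the difference did not pass (log2 fold change 0.14, 95% confidence interval -0.03 to 0.30, limma adjusted p = 0.223). Trp53inp1, a nuclear protein linked to cell death and autophagy, held 68.8, 69.0 and 63.4 FPKM in deletion libraries 1, 2 and 3 and 61.6, 65.5 and 52.3 FPKM in control libraries 1, 2 and 3. Its groups overlapped too, with control library 3 the lowest of all (log2 fold change 0.17, 95% confidence interval -0.04 to 0.38, limma adjusted p = 0.236).

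Phlda3 was the target that fell. It encodes a small protein with a pleckstrin homology domain that competes with the kinase Akt for membrane lipids and thereby restrains survival signalling. It held 2.09, 2.26 and 2.24 FPKM in deletion libraries 1, 2 and 3, against 3.38, 2.94 and 2.89 FPKM in control libraries 1, 2 and 3. Every deletion library was below every control library. The mean was 2.2 ± 0.094 FPKM in deletion and 3.07 ± 0.27 FPKM in control libraries (SD, n = 3 each), a change of -28.5%, with a log2 fold change of -0.35 (SE 0.087, 95% confidence interval -0.55 to -0.14, limma adjusted p = 0.0462). The levels rest on few fragments, 67, 66 and 65 in deletion and 100, 84 and 77 in control libraries. The coefficient of variation between deletion libraries was 4.29%, less than the 12.3% that counting alone gives at this depth. The call was lost whichever library was left out (log2 fold change -0.38 to -0.29, adjusted p = 0.0576 to 0.131). On recovered fragments, with median-ratio scaling and without a pseudocount of 1 FPKM, voom gave a log2 fold change of -0.57 (adjusted p = 0.0541). Median-ratio scaling alone gave -0.41 (limma adjusted p = 0.0324).

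The arrest and feedback targets did not pass the threshold. Mdm2, the ubiquitin ligase that targets p53 for degradation, held 32.4, 30.4 and 31.9 FPKM in deletion libraries 1, 2 and 3, against 28.0, 29.1 and 28.7 FPKM in control libraries 1, 2 and 3. All deletion libraries lay above all control libraries, by 10.4% in the mean (log2 fold change 0.14, 95% confidence interval 0.02 to 0.26, unadjusted p = 0.0314 and adjusted p = 0.117 by limma). With median-ratio scaling the log2 fold change of Mdm2 was 0.05 (adjusted p = 0.527). Ccng1, or cyclin G1, which brings a phosphatase to Mdm2, held 41.7, 43.0 and 39.4 FPKM in deletion libraries 1, 2 and 3 and 45.5, 44.8 and 41.5 FPKM in control libraries 1, 2 and 3. The ranges overlapped (log2 fold change -0.08, 95% confidence interval -0.23 to 0.06, limma adjusted p = 0.361).

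Cdkn1a encodes p21, the inhibitor of cyclin-dependent kinases by which p53 halts the cell cycle. It was among the least abundant targets and held 2.11, 3.2 and 3.03 FPKM in deletion libraries 1, 2 and 3, against 3.23, 2.47 and 3.9 FPKM in control libraries 1, 2 and 3. The groups overlapped, and the confidence interval was the widest of the 10 (log2 fold change -0.15, 95% confidence interval -0.54 to 0.24, limma adjusted p = 0.556). Libraries of the same group differed by more than counting explains, with coefficients of variation of 21.1% in deletion and 22.3% in control libraries, where counting alone gives 9.52% and 9.14%. Proliferation genes differed between the same libraries. Summed over 16 cell cycle genes that p21 is known to keep low, the level was 274, 375 and 254 FPKM in deletion libraries 1, 2 and 3 and 370, 245 and 464 FPKM in control libraries 1, 2 and 3. Control library 2 was the lowest and control library 3 the highest of its group for both Cdkn1a and this sum. Deletion library 2 was the highest of its group for both, whereas Cdkn1a was lowest in deletion library 1 and the sum in deletion library 3. How far proliferation bears on Cdkn1a was not tested.

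Sesn1 and Zmat3 showed the smallest differences. Sesn1 encodes sestrin 1, a stress protein that restrains the growth regulator mTORC1, and held 29.8, 27.1 and 28.9 FPKM in deletion libraries 1, 2 and 3 and 27.7, 32.0 and 26.3 FPKM in control libraries 1, 2 and 3. Deletion libraries lay inside the control range (log2 fold change 0.00, 95% confidence interval -0.19 to 0.20, limma adjusted p = 0.996). Zmat3, an RNA-binding zinc finger protein, held 4.08, 4.21 and 4.24 FPKM in deletion libraries 1, 2 and 3 and 4.12, 4.45 and 3.78 FPKM in control libraries 1, 2 and 3 (log2 fold change 0.02, 95% confidence interval -0.17 to 0.20, limma adjusted p = 0.888). The sign of both turned with the scaling of the libraries.

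**Figure D2:**
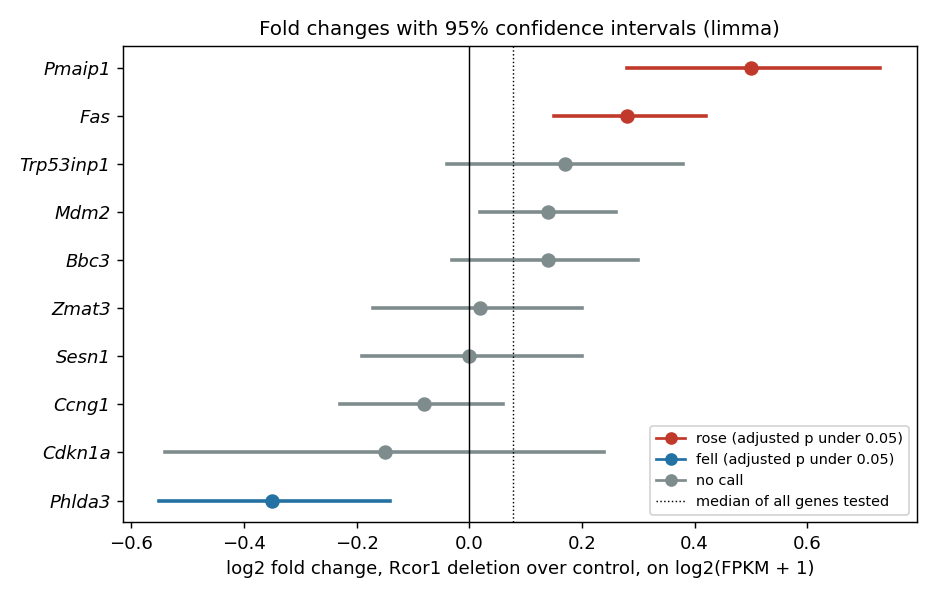
Log2 fold change (deletion over control, on log2(FPKM + 1)) of each p53 target gene with its 95% confidence interval from limma; red rose, blue fell and grey did not pass. Pmaip1 (0.50) and Fas (0.28) stand at the top and Phlda3 (-0.35) at the bottom, and the dotted line is the median of all tested genes (0.08).

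By level, the order of the targets was much the same in both groups. In deletion libraries it was Trp53inp1 (67.1 FPKM), Ccng1 (41.3), Mdm2 (31.6), Fas (31.5), Sesn1 (28.6), Bbc3 (23.4), Pmaip1 (8.39), Zmat3 (4.18), Cdkn1a (2.78) and Phlda3 (2.2), a 30.5-fold span. The ranges of neighbours overlapped there for Mdm2 with Fas and for Cdkn1a with Phlda3. In control libraries the highest and lowest targets were the same and spanned 19.5-fold, but the means of Sesn1 (28.7 FPKM) and Mdm2 (28.6 FPKM) both stood above that of Fas (25.7 FPKM). The control range of Sesn1 overlapped with those of Mdm2 and Fas, and so did the control ranges of Zmat3 with Cdkn1a and of Cdkn1a with Phlda3. The transcripts of arrest (Cdkn1a) and of Akt inhibition (Phlda3) were thus the lowest of the list, and those of Trp53inp1 and Ccng1 the highest.

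The wider pathway was read from 36 further p53 targets, of which 30 were tested. Of these 7 rose and 0 fell, where 8.95% of all tested genes rose and 3.08% fell. This list and the pathway lists below were chosen with earlier results of these data known. Their shares beside all tested genes therefore only describe the lists. An unadjusted limma p under 0.05 was reached by 3770 of all 11575 tested genes and by 13 of these 30. Their median log2 fold change was 0.15, against 0.08 for all tested genes, and 0.07 against 0.00 with median-ratio scaling, where 5 rose, beside 4.83% of all tested genes. Without deletion libraries 1, 2 and 3 in turn 4, 3 and 2 of them rose, and without control libraries 1, 2 and 3 in turn 4, 8 and 4 rose. In the same fits 387, 245 and 208 of all 11575 tested genes rose without a deletion library, and 280, 1441 and 450 without a control library. Voom on recovered fragments gave 6 that rose and 0 that fell, beside 6.09% and 6.31% of all tested genes.

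Among the 13 tested targets of DNA repair and metabolism 5 rose and 0 fell, beside 8.95% and 3.08% of all tested genes. This part of the list, too, was chosen with earlier results known, and its share only describes it. The median log2 fold change of these 13 was 0.24, against 0.08 for all tested genes. With median-ratio scaling and with quantile normalization 3 of them rose, beside 4.83% and 4.09% of all tested genes. Ephx1, an epoxide hydrolase, held 135, 132 and 137 FPKM in deletion libraries 1, 2 and 3, against 97.0, 105 and 91.6 FPKM in control libraries 1, 2 and 3. It averaged 134 ± 2.5 FPKM in deletion and 97.8 ± 6.7 FPKM in control libraries (log2 fold change 0.46, limma adjusted p = 0.00776) and passed in each of 17 settings, the leaving out of any library included. Polk, a DNA polymerase that copies past lesions, averaged 5.06 ± 0.31 FPKM in deletion and 3.02 ± 0.31 FPKM in control libraries (log2 fold change 0.59, limma adjusted p = 0.0108). Abcb1a, a drug efflux pump, averaged 8.53 ± 0.70 and 4.75 ± 0.74 FPKM in deletion and control libraries (log2 fold change 0.73, limma adjusted p = 0.0116), and reads may be shared with its paralog Abcb1b. Abcb1a lost its call without deletion library 3. Rrm2b, a ribonucleotide reductase subunit that supplies nucleotides for repair, averaged 7.84 ± 0.47 FPKM in deletion and 5.98 ± 0.31 FPKM in control libraries (adjusted p = 0.0297 by limma), and its call held without control library 2 but ended when another library was left out, and with median-ratio or quantile scaling. The fifth was Tigar, a regulator of glycolysis, at 5.58 ± 0.27 and 4.38 ± 0.27 FPKM (limma adjusted p = 0.0496), named after its value was seen. Leaving out any library, or median-ratio scaling, ended the call of Tigar.

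Among 8 tested targets of apoptosis 1 rose and 0 fell, a share near the 8.95% of all tested genes that rose. This was Dusp4, a phosphatase of the MAP kinases, at 36.8 ± 0.55 FPKM in deletion and 29.4 ± 0.68 FPKM in control libraries (log2 fold change 0.31, limma adjusted p = 0.012), a call lost without deletion library 2 or 3. Among 9 tested targets of arrest and growth 1 rose and 0 fell, again near that share. Plk3, a stress-responsive kinase, averaged 23.2 ± 2.2 FPKM in deletion and 15.4 ± 2.7 FPKM in control libraries (log2 fold change 0.57, limma adjusted p = 0.0333), a call that held with median-ratio scaling and without control library 2, and ended with quantile normalization and when another library was left out. Dusp4 and Plk3 are also known as rapid response genes of receptor signalling. A list of 12 genes of the handling and stress response summed to 1960 to 2100 FPKM in deletion and 1230 to 1690 FPKM in control libraries. Of its 9 tested genes 4 rose (Fos, Fosb, Jun and Jund), beside 8.95% of all tested genes. The largest part of the sum was Junb, with means of 1130 FPKM in deletion and 768 FPKM in control libraries. Junb missed the threshold (limma adjusted p = 0.0529). The heat shock gene Dnajb1 was lower in every deletion library, without a call, and Hspa1a and Hspa1b were below the filter. The part of this list in these results was not tested. None of its 12 genes was at 0 in all libraries of a group.

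**Figure D3:**
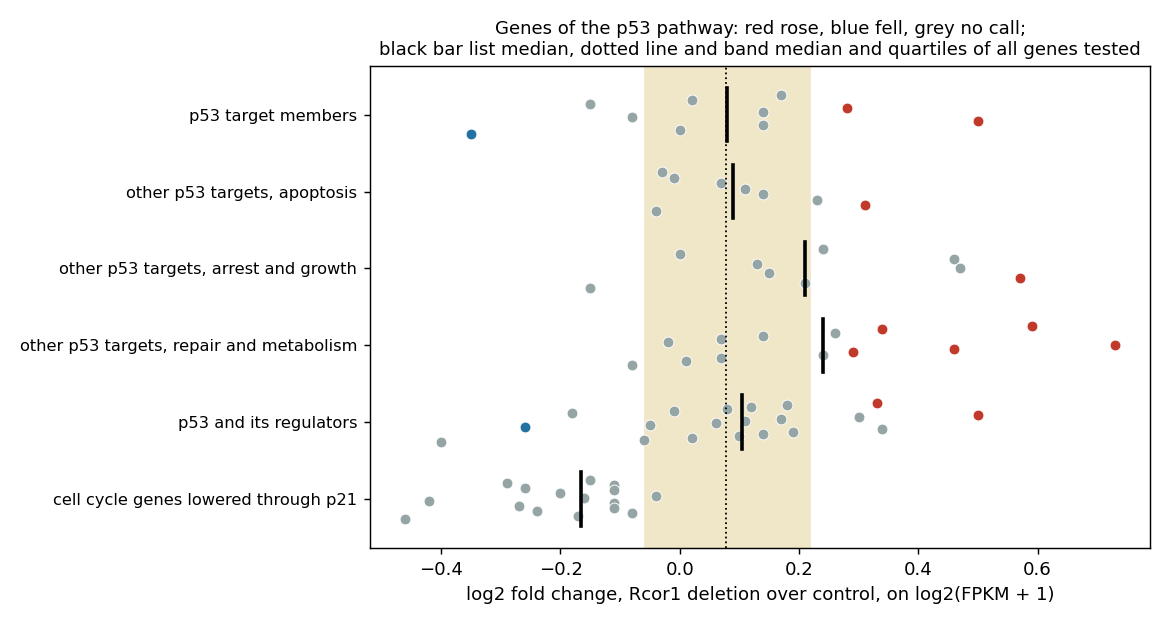
Log2 fold change (deletion over control, on log2(FPKM + 1)) of every tested gene in 6 lists of the p53 pathway, with red for genes that rose, blue for genes that fell and grey for the rest; the black bar is the list median, and the dotted line and band are the median (0.08) and quartiles (-0.06 to 0.22) of all tested genes. The 10 target genes spread around the median of all genes, and the targets of repair and metabolism reach furthest to the right.

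Upstream of the targets, Trp53 held 61.1, 57.2 and 55.0 FPKM in deletion libraries 1, 2 and 3 and 54.9, 56.5 and 59.2 FPKM in control libraries 1, 2 and 3. The groups overlapped (log2 fold change 0.02, limma adjusted p = 0.828). Of 20 tested genes of p53 and its regulators 2 rose and 1 fell, shares near the 8.95% and 3.08% of all tested genes. Atm, the kinase that activates p53 after DNA breaks, averaged 9.94 ± 0.45 FPKM in deletion and 6.75 ± 0.67 FPKM in control libraries (log2 fold change 0.50, limma adjusted p = 0.0154), and passed without control library 2 or 3 but not without any other library. Prkdc, the catalytic subunit of the DNA-dependent protein kinase, averaged 5.08 ± 0.43 and 3.82 ± 0.14 FPKM in deletion and control libraries (log2 fold change 0.33, limma adjusted p = 0.0426), and this call ended whichever library was left out and with median-ratio scaling. Rpl5, a ribosomal protein that can bind Mdm2, averaged 696 ± 56 and 831 ± 7.7 FPKM (log2 fold change -0.26, adjusted p = 0.0493 by limma). Its call held without deletion library 1, was lost without any of the other libraries, and its reads may be shared with pseudogene copies. Trp63, a relative of p53, was at 0 in 5 of the 6 libraries.

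Downstream of p21, 0 of 16 cell cycle genes passed, by limma or by voom, where 12.0% and 12.4% of all tested genes passed. In the limma fit an unadjusted p under 0.05 was reached by 3770 of all 11575 tested genes and by 0 of these 16. A log2 fold change above 0 was found for 7559 of all tested genes and for 0 of these 16. All 16 were the highest of their group in deletion library 2 and control library 3. They vary together between libraries, so these counts do not rest on 16 separate observations. Their median log2 fold change was -0.17, and with 1 library left out it ran from -0.41 without control library 2 and -0.34 without deletion library 2 to -0.06 without deletion library 3 and 0.02 without control library 3. Ccna2, or cyclin A2, averaged 15.1 ± 4.6 FPKM in deletion and 20.6 ± 6.8 FPKM in control libraries (limma adjusted p = 0.337), and E2f1, a transcription factor of the entry into S phase, 6.97 ± 0.99 FPKM and 8.75 ± 2.3 FPKM (limma adjusted p = 0.339). The groups overlapped for all 16 genes, whereas they did not overlap for 39.1% of all tested genes.

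**Figure D4:**
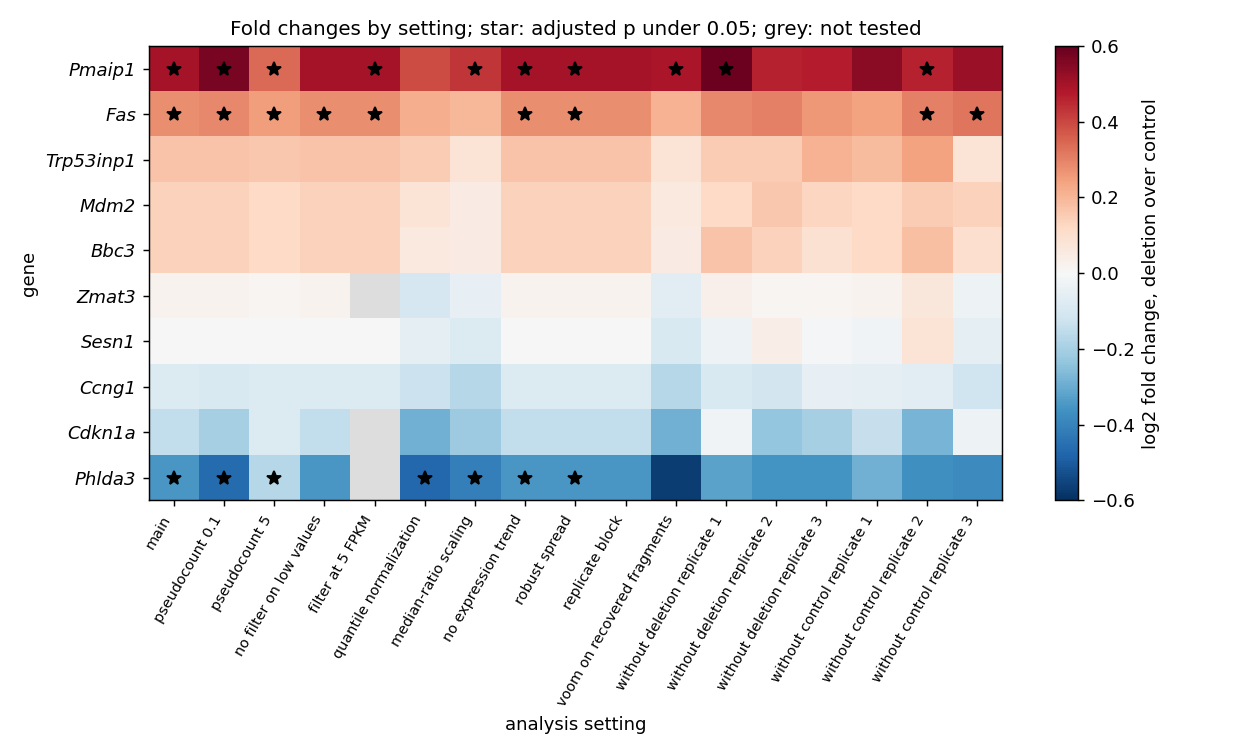
Log2 fold change (deletion over control; colour scale from blue for lower to red for higher) of the 10 p53 target genes under 17 analysis settings, with a star where the adjusted p was under 0.05 and grey where the gene was not tested. Pmaip1 and Fas are positive and Phlda3 is negative in every setting that tested them, while their stars come and go, and no other gene carries a star.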

How the data were processed

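The authors deposited 1 table of FPKM values per gene and library. STAR and the mm10 build are named in the submitters' processing notes, while the counting tool, annotation, strand setting and filters are not named there. The unit was read from the values: of 21898 genes above 0, 15336 (70.0%) gave whole fragments within 0.01 with the longest GENCODE M21 transcript, 6561 did so with a solved length, and 1 did not. These fragments were used for depths and for voom. Symbols were matched for 34490 of 35275 identifiers, and 0 columns were left unused. Groups and columns came from the labels. The fits (limma 3.58.1 with a trend on expression, R 4.3.3) were tested on simulated data. The changes set there were larger than those of Fas, Phlda3 and the targets without a call, and the smallest was close to that of Pmaip1. This test therefore cannot show how well changes of the smaller sizes are found. The targets were given by name, and members and lists were chosen with earlier results of these data known. The text names all targets, Rcor1, Trp53 and up to 4 genes past the threshold with the smallest p per pathway list, or 2 where none passed. The table holds no gene that overlaps a target. The labels call the replicates independent and name no batch, so preparation and group cannot be told apart.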

Additional observations from a re-analysis of the deposited data

How the results depend on the processing

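Over 17 settings (the reported one included), the log2 fold changes of Pmaip1, Fas and Phlda3 kept their sign. Pmaip1 passed the threshold in 10 of 17, Fas in 9 of 17 and Phlda3 in 7 of 16. The count of targets called was 3 as reported, 1 with no filter on low values, 1 with quantile normalization, 1 with voom and 0 to 2 with each library left out in turn. Over all genes, 1392 were called as reported, 844 with no filter, 868 with quantile normalization and 336 to 1942 with each library left out. The sign turned for Sesn1 (-0.06 with quantile normalization, -0.08 with median-ratio scaling, -0.09 with voom, and -0.06 to 0.08 with each library left out) and for Zmat3 (-0.10, -0.05, -0.07, and -0.03 to 0.07). Rcor1 passed with a filter at 5 FPKM (-0.24, adjusted p = 0.0492), quantile normalization (-0.33, 0.0314), median-ratio scaling (-0.32, 0.0289) and voom (-0.35, 0.0166). The causes were not tested.

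The labels give both groups replicate numbers 1 to 3, and the reported fit did not pair them. Deviations of same-numbered libraries from their group means correlated at 0.211, -0.135 and -0.162, and those of differently numbered libraries at -0.188 to 0.336. With 3 libraries per group this cannot decide whether the libraries were paired. With the replicate block, 404 genes and 0 targets were called. Phlda3 and Cdkn1a rest on the fewest fragments of the targets, 65 to 138 per library.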
